A study of Mus musculus with 2 samples.

Results

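10 components of the Wnt pathway were followed across the cell types of the fetal mouse eye: *Wls*, *Fzd5*, *Sfrp1*, *Sfrp2*, *Sfrp5*, *Dkk2*, *Dkk3*, *Wif1*, *Axin2* and *Lef1*. They were taken by symbol and are 10 of the 32285 genes counted. Single cells of E17.5 eye cups were counted in 1 library of *Myrf* humWT/humWT mice and 1 library of *Myrf* humdG/humdG mice, called humWT and humdG here. In both alleles the last mouse exon is replaced by the human one, and the humdG exon also carries the C-terminal variant under study, so the humWT library is a control for the exchange of the exon itself and neither library is unaltered mouse. *Myrf* encodes a transcription factor of the retinal pigment epithelium (RPE). The labels give 3 eye cups pooled in each library, with cornea, lens and optic nerve taken off. The study's methods give 3 mice a genotype and leave the cornea in place, and the protocol in the labels names conditional knockout mice, so the dissection of these libraries is not settled by the sources used here. Each genotype is 1 sample. Replicate error could therefore not be measured and genotypes are compared without a test. The 95% intervals given reflect the counting of UMIs alone.

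Wnt proteins are secreted signals that need the carrier WLS to reach the cell surface. They bind receptors of the Frizzled family, of which FZD5 is one, and in the canonical branch of the pathway this stabilizes β-catenin, which then acts with TCF and LEF factors such as LEF1 on target genes. SFRP proteins and WIF1 bind Wnt proteins outside the cell, DKK2 acts on the co-receptors LRP5 and LRP6, and AXIN2 is made in response to the signal and helps to end it. In the eye this pathway is known for its parts in the RPE, in the margin of the retina and in the tissue around the eye. DKK3 belongs to the DKK family by sequence, but its role in Wnt signalling is less settled.

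The humWT library held 17421 barcodes and 129135207 unique molecular identifiers (UMIs, each 1 counted transcript), and the humdG library 19565 barcodes and 114319529 UMIs. After filtering, 16166 humWT cells with a median of 3785 UMIs and 18173 humdG cells with a median of 2625 UMIs remained, and 86 cell barcodes were present in both. The paper reports fewer cells for each genotype and describes their median genes per cell as comparable. The cells kept here are therefore not its cell set, and the reason for the gap is not given in the sources used here. The cells formed 24 clusters without use of the 10 genes or of the other Wnt genes listed, and 20 clusters carried enough markers to be named as 15 classes, which held 67.98% of humWT and 49.63% of humdG cells. The ending "-like" marks that names rest on markers alone. RPE-like cells (570 humWT and 405 humdG) formed 2 clusters, with 7 and 6 of the 10 RPE markers raised. *Dct*, *Pmel*, *Tyr*, *Tyrp1*, *Rlbp1* and *Slc45a2* were raised in both, and *Rpe65*, *Lrat* and *Best1* in neither. The class had UMIs of all 10 RPE markers, but red blood cell-like cells of each library had UMIs of 8 of them. Levels are UMIs summed over a class on the usual counts per 1e+06 scale (CPM), and they are compared within a gene, not between genes. In RPE-like cells *Myrf*, the altered gene, had 280.5 CPM in humWT and 197.4 CPM in humdG, a ratio of 0.704 (0.632 to 0.782).  No class formed from the markers of ciliary margin, pericytes and other mural cells, optic nerve head or lens. A mural class did form at resolution 1.0 and with a limit of 200 genes per cell. The melanocyte-like cluster had 5 raised markers of its name and 5 of RPE. In it, and in a mesenchyme-like cluster led by *Spp1*, the 10 leading genes held more markers of another class than of their own. The melanocyte-like class and the mesenchyme-like class as a whole were therefore not compared between genotypes, which left 12 classes for that.

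Free RNA gives every droplet some UMIs of genes that its cell does not express, and cells of the red blood cell-like class served as the background, since these genes are not theirs. That background differed between the libraries. In red blood cell-like cells the summed level of 13 mesenchyme markers was 3098 CPM in humWT, with all 13 found, and 1010 CPM in humdG, with 12 found and *Foxl2* at 0. The 8 cartilage markers gave 348.0 CPM with all found in humWT, and 70.5 CPM in humdG with *Matn1* and *Hapln1* at 0. The 9 retinal progenitor markers moved the other way, with 277.5 CPM in humWT and 590.1 CPM in humdG. Over the 14 classes other than mesenchyme-like, the mesenchyme markers had a median sum of 2430 CPM in humWT (1696 to 8650 CPM) and of 1069 CPM in humdG (523.9 to 5225 CPM). Of the 140 combinations of a gene and a class other than red blood cells, 57 lay above the background in both libraries, in the sense that the whole interval of the class lay above that of the red blood cell-like cells. For 7 of the 10 genes the highest class was the same in both libraries, the exceptions being *Dkk3*, *Lef1* and *Sfrp2*.

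**Figure D1:**
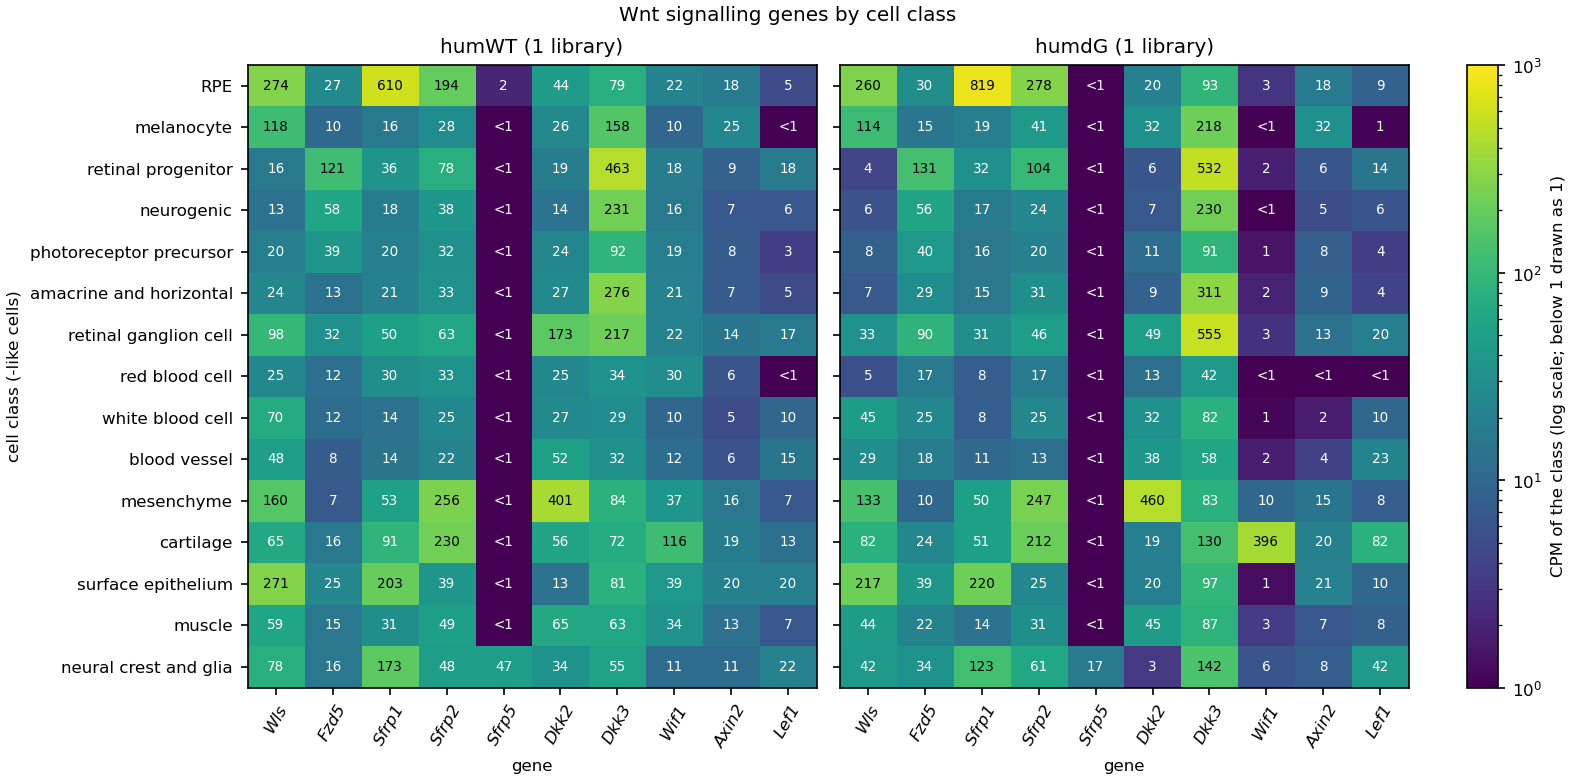
Levels of the 10 genes (columns) in the 15 cell classes (rows) of the humWT library (left) and the humdG library (right), as CPM on a logarithmic colour scale with the value printed in each field. *Sfrp1* is brightest in RPE-like cells, *Dkk3* and *Fzd5* in retinal cells, *Dkk2* in mesenchyme-like cells and *Wif1* in cartilage-like cells, while *Sfrp5* is at most 2.06 CPM outside neural crest and glia-like cells.

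*Wls*, the carrier that takes Wnt proteins to the cell surface (chromosome 3, 159839672 to 159938664, + strand, build GRCm38), was highest in the pigmented and surface epithelia. RPE-like cells had 274.5 CPM in humWT (259.2 to 290.5) and 259.5 CPM in humdG (239.9 to 280.4). Surface epithelium-like cells had 271.0 CPM in humWT and 217.3 CPM in humdG. These were the top classes in both libraries, and in neither did their intervals separate. Mesenchyme-like cells followed with 160.1 and 132.8 CPM, and melanocyte-like cells with 118.1 and 113.6 CPM. In the neural retina, apart from the retinal ganglion cell-like class described below, *Wls* was not above the background. Retinal progenitor-like cells had 16.3 CPM in humWT and 4.27 CPM in humdG, below or near the 25.1 and 5.42 CPM of the background. A cluster led by the tendon genes *Tnmd* and *Scx*, which met no class's marker rule, had *Wls* at 284.9 CPM in humWT and 244.8 CPM in humdG, so this level was not particular to epithelia. After every cell was thinned to 1000 UMIs, 14.0% of humWT and 16.6% of humdG RPE-like cells had a *Wls* UMI, and in red blood cell-like cells the share was 3.36% in humWT and 0 of 239 cells in humdG (exact upper limit 1.53%).

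*Fzd5*, a Wnt receptor with a known part in eye development (chromosome 1, 64730558 to 64737751, - strand), was highest in the progenitors of the retina. Retinal progenitor-like cells had 121.3 CPM in humWT (115.9 to 126.9) and 131.4 CPM in humdG (127.1 to 135.8), from 1898 and 3478 UMIs, and held 51.4% and 52.5% of all *Fzd5* UMIs. The level was lower in the classes that follow progenitors in the making of the retina. Neurogenic-like cells had 57.7 and 55.9 CPM, and photoreceptor precursor-like cells 38.9 and 39.8 CPM. Each of these intervals lay apart from that of the progenitors and above the background of 12.3 CPM in humWT and 17.2 CPM in humdG. RPE-like cells, at 27.2 and 30.3 CPM, lay above the background in humWT only, and mesenchyme-like cells had the lowest values, 6.81 and 10.2 CPM. Among progenitors, the cluster led by histone genes and the other progenitor cluster had 122.1 and 120.5 CPM in humWT and 120.1 and 142.8 CPM in humdG.

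*Sfrp1*, a secreted antagonist that binds Wnt proteins (chromosome 8, 23411502 to 23449632, + strand), was above all a gene of RPE-like cells. They had 609.8 CPM in humWT (586.9 to 633.4) and 819.4 CPM in humdG (784.1 to 855.8). With 2670 humWT and 2030 humdG UMIs they gave 35.3% and 36.4% of all *Sfrp1* UMIs. The next classes were surface epithelium-like cells, with 202.9 and 219.8 CPM, and neural crest and glia-like cells, with 173.2 and 123.0 CPM. In both libraries the interval of RPE-like cells lay apart from these. The background was 30.4 CPM in humWT and 8.13 CPM in humdG. Within RPE-like cells the level was uneven. The larger cluster, led by *Ttr* and *Ptgds*, had 670.0 CPM in humWT and 839.0 CPM in humdG, whereas a small cluster of 74 humWT and 16 humdG cells, led by *Ankfn1* and *Otx2os1*, had 145.3 and 277.4 CPM. A single cell held 156 of the 2670 humWT UMIs, and another 142 of the 2030 humdG UMIs. After thinning, 25.4% (21.9% to 29.2%) of humWT and 36.2% (31.5% to 41.1%) of humdG RPE-like cells had an *Sfrp1* UMI, compared with 2.37% and 2.51% of red blood cell-like cells. Before thinning the shares were 54.7% and 64.2% in RPE-like cells and 12.3% and 3.70% in red blood cell-like cells.

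*Sfrp2*, a related antagonist (chromosome 3, 83766321 to 83774316, + strand), had a broader pattern. In mesenchyme-like cells it stood at 256.5 CPM in humWT and 247.4 CPM in humdG, in cartilage-like cells at 229.8 and 211.5 CPM, and in RPE-like cells at 194.1 and 278.5 CPM. Retinal progenitor-like cells were next with 77.5 and 103.5 CPM. The order of the top classes was not the same in both libraries: mesenchyme-like cells led in humWT and RPE-like cells in humdG, each with an interval apart from the next class. In cells of 5000 or more UMIs, cartilage-like cells led in humWT (405.9 CPM, against 258.8 CPM in mesenchyme-like cells). Their *Sfrp2* was 237.3 CPM in humdG, a ratio of 0.585 (0.483 to 0.710). Over the alternatives the cartilage-like log2 ratio, reported as -0.120, ran from -0.775 to 0.113. Neurogenic-like cells had 38.4 CPM in humWT and 24.2 CPM in humdG, and neither value was above the background of 33.5 and 17.2 CPM. *Sfrp1* and *Sfrp2* thus overlapped in RPE-like cells, but *Sfrp1* was not high in mesenchyme-like cells (52.79 and 49.97 CPM). The antisense gene *Gm26771* overlaps *Sfrp2*, and the sources do not state how strand was used in counting, so reads of this pair may not be separable.

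*Sfrp5* (chromosome 19, 42197971 to 42202252, - strand), the remaining SFRP gene of the set, was nearly absent from the ocular tissues captured. All humWT cells gave 71 UMIs and all humdG cells 19. Neural crest and glia-like cells held 41 of the humWT UMIs (46.7 CPM) and 11 of the humdG UMIs (17.1 CPM). No other class held more than 9. RPE-like cells had 9 UMIs in humWT (2.06 CPM, 0.940 to 3.90) and 2 in humdG (0.807 CPM, 0.0978 to 2.92), and retinal progenitor-like cells had 2 and 1. The neural crest and glia-like class rests on 49 humWT and 40 humdG cells, and a single cell held 14 of the 41 humWT UMIs and another 5 of the 11 humdG UMIs.

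**Figure D2:**
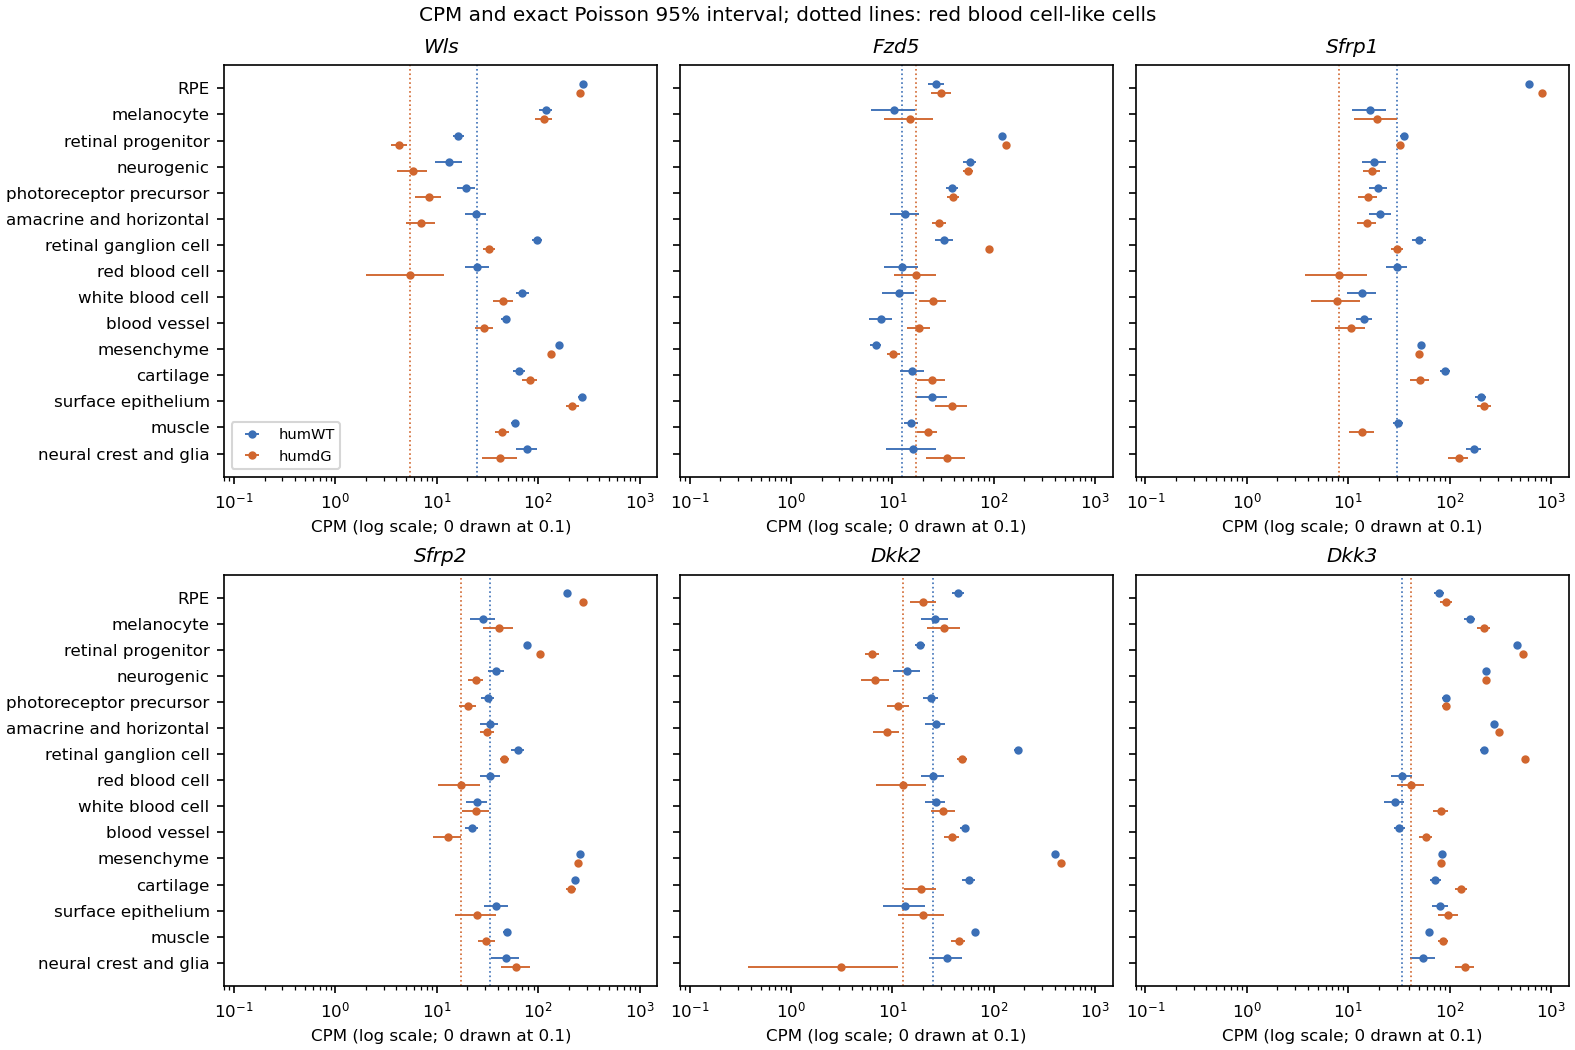
CPM of *Wls*, *Fzd5*, *Sfrp1*, *Sfrp2*, *Dkk2* and *Dkk3* in each cell class (rows) on a logarithmic axis, with the humWT library in blue, the humdG library in orange, exact Poisson 95% intervals as bars and the level of red blood cell-like cells as dotted lines. In the neural retina, ganglion cell-like cells aside, the *Wls* and *Dkk2* points of each library lie near or below the dotted line of that library, and the line itself is lower in humdG.

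*Dkk2*, an antagonist that acts on LRP co-receptors (chromosome 3, 132085292 to 132180304, + strand), was highest in the tissue around the eye. Mesenchyme-like cells had 400.6 CPM in humWT (393.9 to 407.4) and 460.3 CPM in humdG (450.8 to 469.9), and held 70.4% and 80.1% of all *Dkk2* UMIs. The cluster of this class led by *Spp1*, *Mgp*, *Rgs5* and *Aldh1a2* had 564.4 and 609.6 CPM, and the cluster led by *Tnxb* and *Pi16* had 258.5 and 278.3 CPM. *Rgs5* is a marker of mural cells, and the *Spp1* cluster had 5 mural markers raised beside 9 of mesenchyme. Its high *Dkk2* may therefore not be that of mesenchyme alone. The *Tnmd* cluster had 331.3 and 368.4 CPM. RPE-like cells stood at 44.3 CPM in humWT and 20.2 CPM in humdG. In humWT, 79 of the 194 *Dkk2* UMIs of RPE-like cells came from the small *Otx2os1* cluster. A single cell of the class held 42 of the 194 in humWT, and 1 cell held 22 of the 50 in humdG. The humdG value was not above the background of 12.65 CPM (6.92 to 21.2).

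*Dkk3*, a secreted DKK family member (chromosome 7, 112116017 to 112159057, - strand), was found in nearly every retinal progenitor-like cell, with a UMI in 91.3% of humWT and 94.8% of humdG cells before thinning and in 37.9% and 43.5% after it. Red blood cell-like cells after thinning had shares of 2.77% and 4.60%. The level in progenitors was 463.2 CPM in humWT (452.6 to 474.0) and 532.5 CPM in humdG (523.7 to 541.3). Amacrine and horizontal-like cells kept 276.0 and 310.8 CPM and neurogenic-like cells 231.2 and 230.1 CPM, whereas photoreceptor precursor-like cells had 91.6 and 91.4 CPM. The gene was thus lower in photoreceptor precursor-like than in amacrine and horizontal-like cells of both libraries, with intervals apart. Melanocyte-like cells had 157.6 and 217.6 CPM. All of these lay above the background of 33.9 CPM in humWT and 41.6 CPM in humdG.

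The class named retinal ganglion cell-like needs care for *Dkk2*, *Dkk3*, *Fzd5* and *Wls*. It has 243 humWT and 354 humdG cells and 9 raised markers of its name. None of them is among its 10 leading genes, which also holds for both progenitor clusters, the small RPE cluster and the *Spp1* cluster of mesenchyme-like cells. The class formed in none of the 5 other clusterings tried. Its summed mesenchyme markers were 8650 CPM in humWT and 1469 CPM in humdG, and its retinal progenitor markers 959.0 CPM in humWT and 2137 CPM in humdG. *Dkk2* in this class was 173.3 CPM in humWT and 48.6 CPM in humdG, and *Wls* was 98.4 and 32.9 CPM. *Dkk3* was 217.0 CPM in humWT and 554.7 CPM in humdG, and *Fzd5* was 32.5 and 90.5 CPM. *Dkk2* and *Wls*, both high in mesenchyme-like cells, were thus higher in humWT, and *Dkk3* and *Fzd5*, both highest in progenitors of the humWT library, were higher in humdG. The marker lists moved in the same directions, and their part in these differences was not tested.

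*Wif1*, which encodes a secreted inhibitor that binds Wnt proteins (chromosome 10, 121033960 to 121100650, + strand), was above the background in both libraries in cartilage-like cells only, of the 14 classes set against it. Cartilage-like cells had 116.5 CPM in humWT (105.5 to 128.2) and 396.2 CPM in humdG (366.6 to 427.5). Red blood cell-like cells had 68 UMIs in humWT, 29.95 CPM, and 0 UMIs in humdG, where 3 counts would be 2.71 CPM. Set to this floor, the humdG background was 11.05-fold lower than that of humWT, and the exact interval of the ratio ran up to 0.114. In the humWT library every class lay between 9.89 and 39.3 CPM apart from cartilage-like cells, and none of these was above the red blood cell level. In the humdG library mesenchyme-like cells had 10.3 CPM and the other 12 classes between 0 and 6.23 CPM. The mesenchyme cluster led by *Tnxb* and *Pi16* had 58.9 CPM in humWT and 17.3 CPM in humdG, above the background in both, and its *Spp1* counterpart 12.5 and 4.58 CPM. The larger of the muscle-like clusters (56.7 and 8.84 CPM, from 303 and 11 UMIs) and an unnamed cluster (46.5 and 4.84 CPM, from 396 and 69 UMIs) also lay above the background in both libraries. Their cells were shallow, with medians of 2900 and 2004 UMIs and of 2284 and 1656, against 3986 and 4247 in red blood cell-like cells. *Wif1* in all muscle-like cells was 33.7 and 3.43 CPM, but 13.3 and 0.880 CPM in those of 5000 or more UMIs. Red blood cell-like cells of that depth had 20.8 and 0 CPM. The part of depth was not tested. A single cell held 65 of the 1266 *Wif1* UMIs of humWT mesenchyme-like cells, and 1 cell held 28 of the 56 of humWT surface epithelium-like cells.

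**Figure D3:**
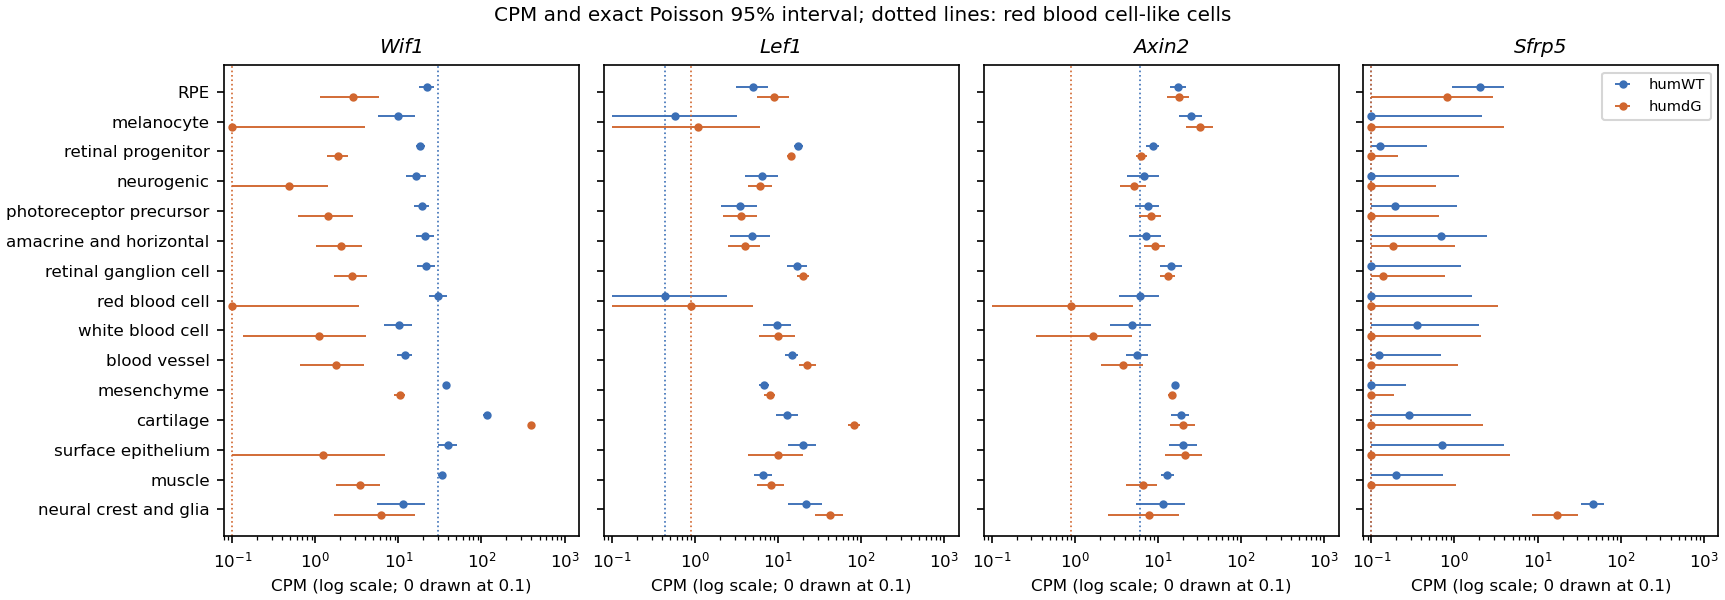
CPM of *Wif1*, *Lef1*, *Axin2* and *Sfrp5* in each cell class on a logarithmic axis, drawn as for the genes above, with 0 placed at 0.1. *Wif1* in humWT lies around or below its dotted line in every class but cartilage-like cells, *Lef1* lies above its dotted line in most classes of both libraries, and *Sfrp5* stands out in neural crest and glia-like cells.

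*Axin2*, the feedback inhibitor widely used as a readout of canonical Wnt signalling (chromosome 11, 108920349 to 108950783, + strand), was low everywhere, with 1500 UMIs in all humWT cells and 1033 in all humdG cells. The highest values were those of melanocyte-like cells, 25.0 CPM in humWT (18.1 to 33.7) and 32.2 CPM in humdG (21.7 to 45.9). Surface epithelium-like cells followed with 20.4 and 21.2 CPM, cartilage-like cells with 18.8 and 20.3 CPM, RPE-like cells with 17.6 and 17.8 CPM, and mesenchyme-like cells with 16.0 and 14.8 CPM. These 5 classes had the same order in both libraries, although for all 14 pairs of neighbours in the whole order the intervals overlapped in each library. Retinal progenitor-like cells had 8.69 and 6.35 CPM, compared with a background of 6.17 CPM in humWT and 0.904 CPM in humdG. *Gm11670* overlaps *Axin2* on the other strand.

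*Lef1*, the nuclear partner of β-catenin (chromosome 3, 131110471 to 131224356, + strand), lies 860936 bases before *Dkk2* on the same chromosome but did not share its pattern. The background was low, with 1 UMI in red blood cell-like cells of each library. In humWT the top classes were neural crest and glia-like cells, 21.7 CPM (13.0 to 33.8), surface epithelium-like cells, 19.7 CPM, and retinal progenitor-like cells, 17.51 CPM (15.5 to 19.7), whose intervals overlapped. In humdG the top class was cartilage-like cells, 82.2 CPM (69.1 to 97.1), followed by neural crest and glia-like cells, 42.1 CPM (27.7 to 61.2). Blood vessel-like cells had 14.5 and 22.6 CPM, and the cluster led by *Flt1* and *Plvap* held 105 of the 116 humWT and 73 of the 76 humdG UMIs. Melanocyte-like cells, which had the most *Axin2*, had 1 *Lef1* UMI in each library. *Gm43352* overlaps *Lef1* on the other strand.

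Because *Axin2* and *Lef1* are read as genes that answer Wnt signals, the promoters of the set were searched for the TCF/LEF motif CTTTGA on both strands (TCAAAG on the other). RefSeq promoters of GRCm38.p6, 250 bases before to 50 after a start, were at hand for 8 of the 10 genes, not for *Dkk3* and *Sfrp1*, and gave 11 starts. One of the 11 held the motif, at the most downstream of 4 *Lef1* starts, compared with 16.00% of all 32851 promoters in the table. That sequence is shown with the *Axin2* promoter, which holds no copy in this window, and with the first *Lef1* start, since these are the members whose levels are used as a readout. Capitals mark the 2 copies, both in the reverse orientation, the first 180 bases before the start.
*Axin2*, chr11:108920099-108920398, + strand: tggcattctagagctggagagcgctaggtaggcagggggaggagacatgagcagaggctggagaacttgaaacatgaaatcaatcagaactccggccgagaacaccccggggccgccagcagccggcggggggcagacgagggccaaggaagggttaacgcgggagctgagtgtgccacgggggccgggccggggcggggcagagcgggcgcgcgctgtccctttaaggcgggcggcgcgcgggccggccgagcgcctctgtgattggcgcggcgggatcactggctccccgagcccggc
*Lef1* first start, chr3:131110047-131110346, + strand: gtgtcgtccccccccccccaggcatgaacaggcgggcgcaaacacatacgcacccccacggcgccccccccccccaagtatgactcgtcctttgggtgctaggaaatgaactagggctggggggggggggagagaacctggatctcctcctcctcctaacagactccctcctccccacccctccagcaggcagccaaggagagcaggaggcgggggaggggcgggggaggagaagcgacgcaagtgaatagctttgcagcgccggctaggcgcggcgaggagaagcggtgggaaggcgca
*Lef1* most downstream start, chr3:131156044-131156343, + strand: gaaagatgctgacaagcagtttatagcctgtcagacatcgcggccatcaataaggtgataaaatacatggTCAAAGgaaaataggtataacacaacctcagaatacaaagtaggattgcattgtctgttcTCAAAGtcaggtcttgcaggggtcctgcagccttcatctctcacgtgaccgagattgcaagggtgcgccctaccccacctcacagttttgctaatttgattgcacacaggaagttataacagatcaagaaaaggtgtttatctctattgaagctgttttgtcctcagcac
The *Axin2* window has 70.00% G and C, the first *Lef1* window 67.33% and the most downstream one 43.67%, against a median of 52.67% over all promoters. A match is a string of letters and is not a measured binding site, and its absence from 300 bases says nothing of other parts of the gene.

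The question the design puts to these genes is whether they differ between humWT and humdG within a cell class. A gene and class pair was counted when both libraries together gave at least 20 UMIs, and as different when the CPM differed 2-fold or more. Of 106 pairs counted, 10 were higher and 25 lower in humdG. Over all genes counted in a class, between 1.93% and 6.04% were higher in 11 of the 12 classes and 23.1% in cartilage-like cells, which hold 2 of the 10 higher pairs, and between 3.43% and 7.50% were lower in the 12 classes. The lower pairs were those of *Wif1* in 10 classes, *Dkk2* in 8, *Wls* in 5, and *Sfrp1* and *Sfrp5* in 1 each. The higher pairs were those of *Fzd5* in 5 classes, *Dkk3* in 3, and *Wif1* and *Lef1* in 1 each. Most of these pairs were not above the red blood cell level, and once that level was subtracted from each class 17 pairs were higher and 7 lower. No share of all genes after the same subtraction is at hand, so these counts cannot be read as particular to the Wnt genes. Of the 47 counted pairs above the red blood cell level in both libraries, 4 were 2-fold higher and 3 were 2-fold lower in humdG. Of those 7 pairs, 4 belonged to the retinal ganglion cell-like class described above.

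**Figure D4:**
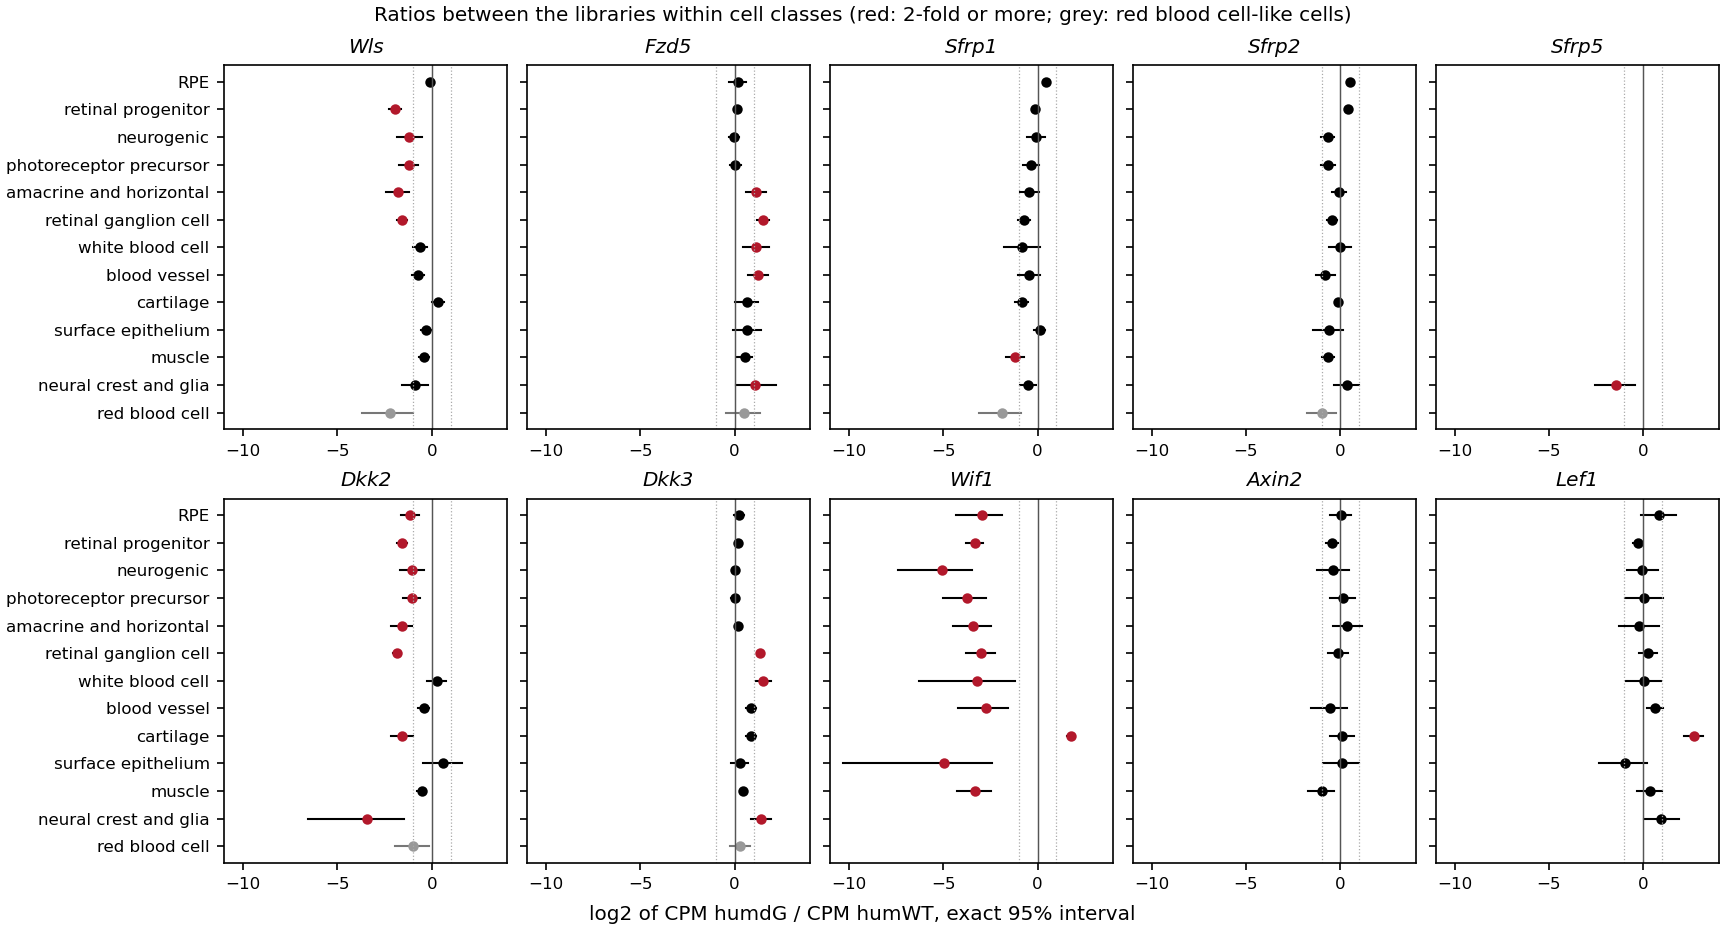
Log2 ratio of humdG to humWT CPM for each gene (panels) in the 12 compared classes and in red blood cell-like cells (rows), with exact 95% intervals as bars, red points for 2-fold or more and grey for red blood cells; pairs under 20 UMIs, or at 0 in 1 library, are left out. *Wif1* is to the left in 10 classes and to the right in cartilage-like cells, and *Dkk2* and *Wls* are to the left in the retinal classes, as they are in red blood cell-like cells.

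In RPE-like cells, 9 of the 10 genes were counted and 2 of them, *Wif1* and *Dkk2*, differed 2-fold, both lower in humdG, while of all 12656 genes counted there 5.87% were lower and 2.54% higher by as much. The secreted antagonist genes *Sfrp1* and *Sfrp2* were moderately higher in humdG. *Sfrp1* had 609.8 CPM in humWT and 819.4 CPM in humdG, a ratio of 1.34 (1.27 to 1.42). *Sfrp2* had 194.1 and 278.5 CPM, a ratio of 1.44 (1.30 to 1.59). *Sfrp1* was higher in either cluster of the class, with ratios of 1.25 in the larger and 1.91 (1.15 to 3.07) in the smaller. *Sfrp2* had a ratio of 1.34 in the larger, while the 22 and 5 UMIs of the smaller gave 1.32 with an interval of 0.391 to 3.57. When only cells of 5000 or more UMIs were kept, 213 humWT and 104 humdG cells, the ratios were 1.29 and 1.44. Clustering the libraries without integration lowered the log2 ratio of *Sfrp1* from 0.426 to 0.296, beyond its counting interval. That of *Sfrp2* went from 0.521 to 0.393, within its interval. *Wls* differed little, with 274.5 and 259.5 CPM and a ratio of 0.945 (0.858 to 1.04). *Axin2* had 17.6 and 17.8 CPM, and its ratio of 1.01 had an interval of 0.681 to 1.48, so a difference within these bounds was not detectable at this depth. *Lef1*, with 22 UMIs in each library, had 5.03 and 8.88 CPM and a ratio of 1.77 (0.933 to 3.35). In the main RPE cluster alone *Lef1* had 8 and 16 UMIs, 2.06 and 6.69 CPM, a ratio of 3.24 (1.31 to 8.75). In the small *Otx2os1* cluster it had 14 and 6 UMIs, 27.86 and 69.35 CPM, a ratio of 2.49 (0.784 to 6.895). Both ratios are past 2-fold on few UMIs, so the pooled ratio stands for neither cluster. *Fzd5* and *Dkk3* had ratios of 1.11 (0.823 to 1.499) and 1.18 (0.993 to 1.40), but of 0.740 (0.479 to 1.12) and 0.773 (0.614 to 0.969) in cells of 5000 or more UMIs, so neither direction held across depths.

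The 2 genes that were lower in RPE-like cells were lower in the background as well. *Wif1* had 21.9 CPM in humWT and 2.83 CPM in humdG, below the 29.95 CPM of humWT red blood cell-like cells. *Dkk2* had 44.3 and 20.2 CPM, a ratio of 0.456 (0.327 to 0.624), and in red blood cell-like cells 25.1 and 12.65 CPM. Without the small *Otx2os1* cluster *Dkk2* was no longer past 2-fold, with 29.7 and 20.5 CPM and a ratio of 0.691 (0.484 to 0.973). The 13 mesenchyme markers in RPE-like cells summed to 2900 CPM in humWT and 1288 CPM in humdG, with all 13 found in both. The part of free RNA in these ratios was not tested.

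In retinal progenitor-like cells, 9 genes were counted, 3 differed 2-fold (*Wif1*, *Wls* and *Dkk2*, all lower in humdG), and of all 16071 genes counted 5.79% were lower and 1.99% higher by as much. *Wif1* had 18.4 CPM in humWT and 1.85 CPM in humdG, *Wls* 16.3 and 4.27 CPM, and *Dkk2* 18.9 and 6.31 CPM. None of the 6 values was above its library's red blood cell level. The genes that progenitors do express differed by less. *Dkk3* had a ratio of 1.15 (1.12 to 1.18), *Fzd5* of 1.08 (1.02 to 1.15) and *Sfrp2* of 1.34 (1.25 to 1.43). *Sfrp2* was higher in humdG in both progenitor clusters, with ratios of 1.29 and 1.38. The *Fzd5* ratio was 1.185 (1.095 to 1.28) in the main progenitor cluster and 0.984 (0.907 to 1.07) in the histone-led cluster, and its log2 ratio over the class was 0.015 in cells of 5000 or more UMIs. *Lef1* had 17.51 CPM in humWT and 14.3 CPM in humdG, a ratio of 0.818 (0.698 to 0.959), and *Axin2* 8.69 and 6.35 CPM, a ratio of 0.730 (0.579 to 0.922), with humWT *Axin2* not above the background.

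In neurogenic-like cells 3 genes differed 2-fold, all lower (*Wif1*, *Dkk2* and *Wls*), beside 4.28% of all genes lower and 1.93% higher, and the same genes were the 3 that differed in photoreceptor precursor-like cells, beside 5.06% lower and 2.00% higher. In these classes *Dkk3* had ratios of 0.995 (0.911 to 1.09) and 0.998 (0.879 to 1.13), and *Fzd5* of 0.969 and 1.02. *Sfrp2*, higher in humdG progenitors, was lower here, with ratios of 0.630 (0.493 to 0.805) in neurogenic-like and 0.633 (0.494 to 0.809) in photoreceptor precursor-like cells. The latter had 31.75 CPM in humWT and 20.09 CPM in humdG, and neither class was above the *Sfrp2* background in either library. That background was 33.48 CPM in humWT and 17.17 CPM in humdG, a ratio of 0.513 (0.293 to 0.857). Its part in the lower *Sfrp2* values was not tested. In amacrine and horizontal-like cells those 3 genes were lower and *Fzd5* was higher, 13.3 CPM in humWT and 28.9 CPM in humdG, beside 5.97% of all genes lower and 2.45% higher. Neither *Fzd5* value was above the background. In the retinal ganglion cell-like class 2 genes were higher and 3 lower, beside 6.04% of all genes higher and 7.50% lower.

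Outside the retina, *Lef1* and *Wif1* were higher in humdG cartilage-like cells, a class of unequal size. There were 1177 humWT and 128 humdG cells. Of the 9 members counted 2 were higher and 1 was lower in humdG, while of all genes counted there 23.1% were higher and 3.43% lower. *Lef1* had 12.9 CPM in humWT and 82.2 CPM in humdG, a ratio of 6.37 (4.53 to 9.10), and *Wif1* 116.5 and 396.2 CPM, a ratio of 3.40 (3.01 to 3.86). *Dkk2* was lower, with 56.4 and 19.1 CPM. Over all genes of this class the median log2 ratio was 0.55, and relative to it *Lef1* was 2.12 and *Wif1* 1.21 higher on the log2 scale. The *Wif1* log2 ratio of 1.77 was 0.76 when the libraries were clustered without integration and 0.47 when the Wnt genes were kept for clustering, both under 2-fold, whereas the *Lef1* log2 ratio of 2.67 was 2.88 and 2.58. The difference rests on few cells. In humdG, 23 cells of 5000 or more UMIs held 652 of the 665 *Wif1* UMIs and 132 of the 138 *Lef1* UMIs, and 1 cell held 114 *Wif1* UMIs. Set against the 48 humWT cells that passed the same limit, the ratios were 3.39 (2.57 to 4.56) for *Wif1* and 7.41 (3.10 to 23.2) for *Lef1*. The *Lef1* ratio rests on 5 humWT UMIs. Of the 8 cartilage markers, 7 had ratios from 0.880 (*Cnmd*) to 1.47 (*Acan*), and *Matn1* had 4 humWT UMIs and 0 in humdG. These sets of cells were not matched in depth. *Col2a1* had 518 UMIs at 1314 CPM in the 48 humWT cells and 2204 UMIs at 1570 CPM in the 23 humdG cells. In the share of cells with a UMI after thinning, *Wif1* was at 10.3% in humWT (8.64% to 12.2%) and 8.59% in humdG (4.37% to 14.9%), against the order of its CPM. *Lef1* was at 1.36% (0.782% to 2.21%) and 1.56% (0.190% to 5.53%), in the order of its CPM but with overlapping intervals.

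Neural crest and glia-like cells had 2 genes 2-fold higher, *Dkk3* and *Fzd5*, and 2 lower, *Dkk2* and *Sfrp5*, beside 2.68% of all genes higher and 5.59% lower. *Sfrp5* had 46.7 CPM in humWT and 17.1 CPM in humdG, a ratio of 0.367 (0.170 to 0.726) from 41 and 11 UMIs. *Dkk3* had 54.7 and 141.7 CPM, and *Fzd5* 16.0 and 34.3 CPM. *Dkk2* had 34.2 and 3.12 CPM, with 18 of its 30 humWT UMIs in 1 cell. In white blood cell-like cells *Dkk3* (28.7 and 82.1 CPM) and *Fzd5* (11.54 and 25.1 CPM) were higher and *Wif1* was lower, beside 4.26% of all genes higher and 5.01% lower. In cells of 5000 or more UMIs the *Fzd5* ratio there was 1.92 (1.12 to 3.32), under 2-fold, and the *Dkk3* ratio 3.56 (2.56 to 5.02). With the same limit, neural crest and glia-like cells had ratios of 2.47 (1.72 to 3.60) for *Dkk3* and 2.14 (1.05 to 4.53) for *Fzd5*. In blood vessel-like cells *Fzd5* (7.63 and 18.1 CPM) was higher and *Wif1* lower, beside 2.18% higher and 5.00% lower. The *Fzd5* ratio of 2.37 fell to 1.31 (0.782 to 2.15) in cells of 5000 or more UMIs, and it was 3.53 and 1.40 in the 2 clusters of the class. In all 3 classes *Dkk3* and *Fzd5*, genes of the progenitors, were higher in the library whose red blood cell-like cells also held more progenitor marker UMIs. Red blood cell-like cells themselves had ratios of 1.23 (0.832 to 1.79) for *Dkk3* and 1.39 (0.735 to 2.58) for *Fzd5*. The humdG *Dkk3* values of neural crest and glia-like and white blood cell-like cells lay above the humdG background of 41.6 CPM (30.4 to 55.5). Their humWT *Dkk3* values, and the *Fzd5* values of all 3 classes, were not above the background. The part of free RNA was not tested. Surface epithelium-like cells had only *Wif1* past the fold, lower there as were 4.99% of all genes, with 2.11% higher. Muscle-like cells had *Wif1* and *Sfrp1*, both lower, beside 4.80% of all genes lower and 2.60% higher. *Sfrp1*, at 31.1 and 13.7 CPM there, was not above the background of 30.4 and 8.13 CPM in either library. That background had a ratio of 0.268 (0.117 to 0.538), and its part in the lower *Sfrp1* value was not tested. The class joins a cluster of 1749 humWT and 576 humdG cells with one of 255 and 122 cells. *Sfrp1* had a ratio of 0.671 (0.473 to 0.931) in the larger cluster and of 0.284 (0.0991 to 0.670) in the smaller, there from 44 and 6 UMIs. *Dkk2* had a ratio of 1.10 in the larger cluster and of 0.193 (0.0682 to 0.442) in the smaller, from 65 and 6 UMIs, so the pooled ratio of 0.688 stands for neither. In surface epithelium-like cells *Sfrp1* had a ratio of 1.08 (0.893 to 1.31) and *Wls* of 0.802 (0.666 to 0.961), in a class whose cells had a median of 6687 UMIs in humWT and 1997.5 in humdG. In its cells of 5000 or more UMIs these ratios were 1.18 (0.957 to 1.45) and 0.921 (0.757 to 1.12). In the mesenchyme clusters, compared by number, only *Wif1* was past the fold, with ratios of 0.294 (0.247 to 0.349) in the *Tnxb* cluster and 0.366 (0.262 to 0.503) in the *Spp1* cluster, beside 3.48% and 2.97% of all genes lower and 1.74% and 1.46% higher, while *Dkk2* had ratios of 1.08 in each.

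Other genes of the pathway, 79 in all, showed where partners of these components were found. Among ligands, *Wnt4*, *Wnt6* and *Wnt5b* were highest in surface epithelium-like cells, with 431.0, 226.8 and 233.1 CPM in humWT and 428.3, 265.9 and 124.9 CPM in humdG, the class that also had high *Wls*. *Porcn*, which adds the lipid that Wnt proteins need, was low, with at most 19.98 CPM in any class. Among receptors, *Ror1* led in the retinal ganglion cell-like class (279.0 and 198.7 CPM), *Fzd3* in amacrine and horizontal-like cells (215.2 and 195.0 CPM) and *Lgr4*, a receptor for R-spondins, in surface epithelium-like cells (218.3 and 212.3 CPM). Of the inhibitors, *Sostdc1* was high in RPE-like cells with 484.4 CPM in humWT and 719.3 CPM in humdG, with a background of 4.845 and 2.71 CPM, another secreted inhibitor gene of these cells beside *Sfrp1* and *Sfrp2*. *Znrf3*, which removes receptors from the surface, had 97.1 and 115.7 CPM in the retinal ganglion cell-like class, and *Draxin* 55.7 and 79.95 CPM in amacrine and horizontal-like cells. Inside the cell, *Ctnnb1*, which encodes β-catenin, and the kinase gene *Csnk1a1* were highest in blood vessel-like cells (586.8 and 585.9 CPM, and 322.2 and 281.7 CPM), and the kinase gene *Gsk3b* in amacrine and horizontal-like cells (365.5 and 414.9 CPM). Of the nuclear genes, *Tcf7l1* was highest in cartilage-like cells of humdG (309.2 CPM, against 106.9 CPM in humWT), and *Tcf7l2* and *Bcl9* in the retinal ganglion cell-like class of humdG. In humWT *Tcf7l2* had 194.2 CPM in that class and 196.5 CPM in retinal progenitor-like cells. *Ccnd1*, a cyclin gene counted among Wnt targets, had 2271 and 2554 CPM in retinal progenitor-like cells.

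**Figure D5:**
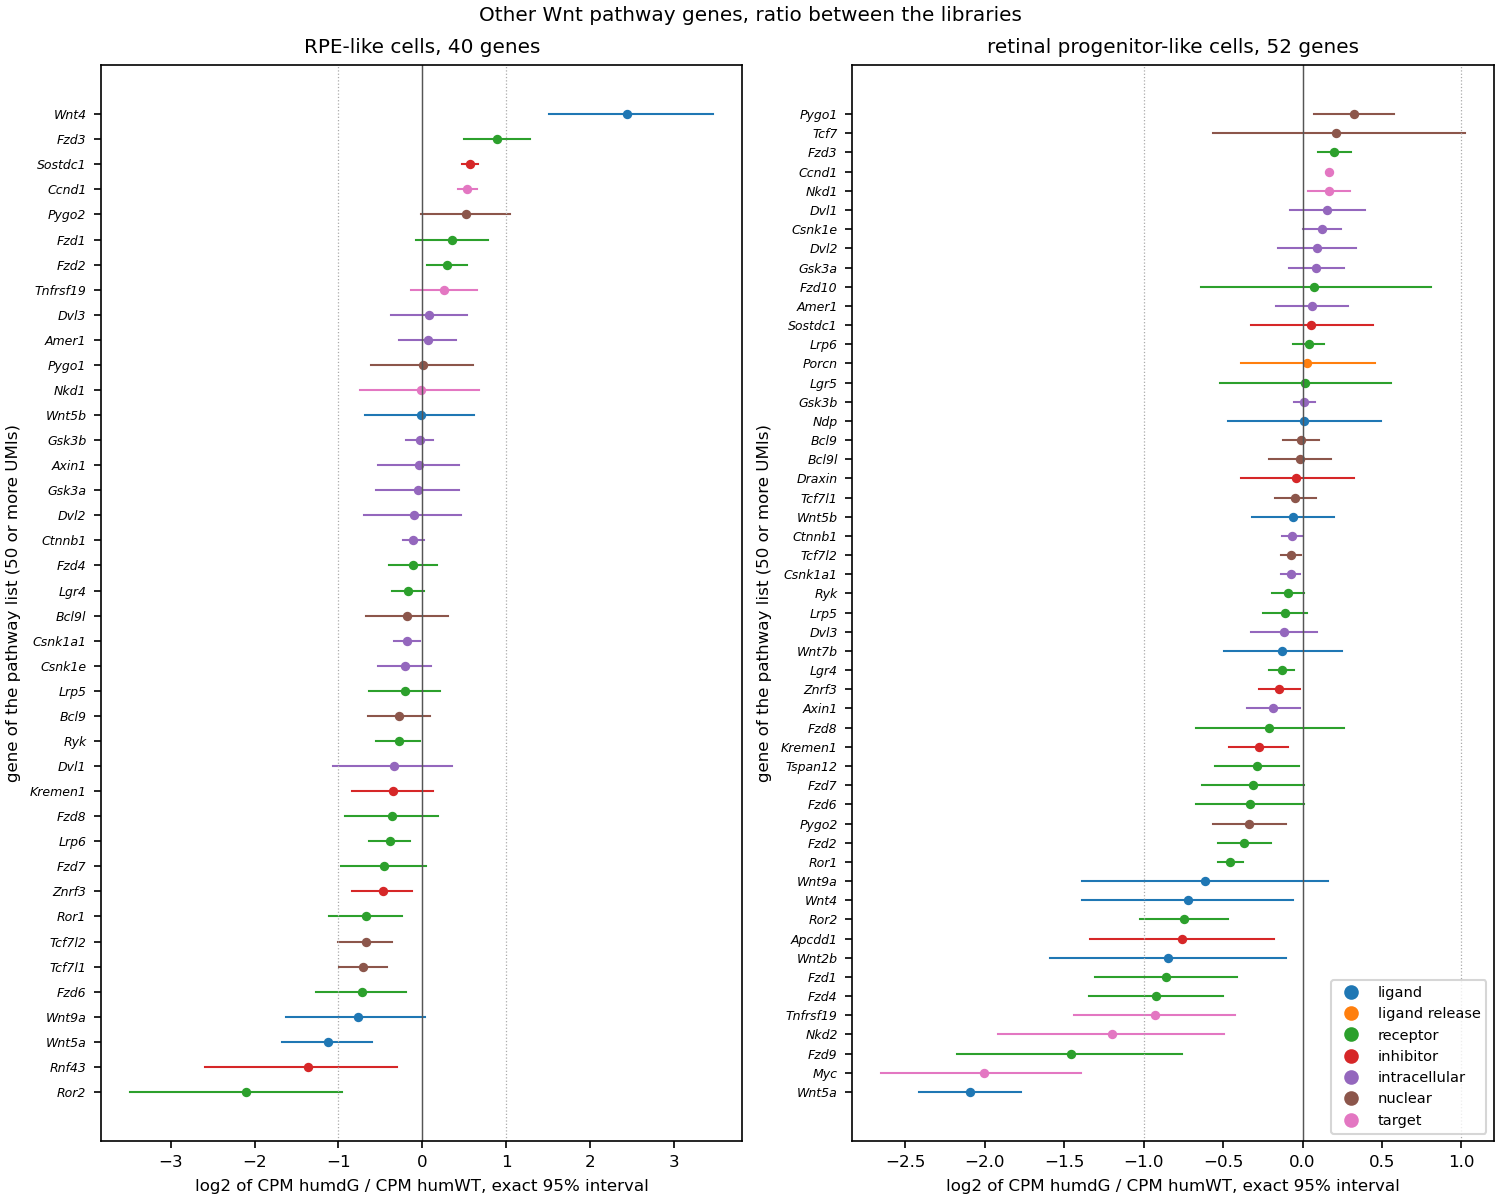
Log2 ratio of humdG to humWT CPM with exact 95% intervals for the other Wnt pathway genes with 50 or more UMIs, in RPE-like cells (left, 40 genes) and retinal progenitor-like cells (right, 52 genes), coloured by role. Most points lie within 2-fold; *Wnt4* is highest and *Ror2* lowest on the left, and *Pygo1* is highest and *Wnt5a* lowest on the right.

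In RPE-like cells, 47 of the 79 other genes were counted, of which 3 were 2-fold higher and 6 lower in humdG, beside 2.54% and 5.87% of all genes, and their median log2 ratio was -0.17, compared with -0.06 over all genes. The highest ratios among those with 50 or more UMIs were those of *Wnt4* (2.97 CPM in humWT and 16.15 CPM in humdG, ratio 5.44, 2.85 to 11.1), *Fzd3* (24.7 and 45.6 CPM, ratio 1.85) and *Sostdc1* (ratio 1.485, 1.39 to 1.58). *Wnt4* rests on 13 and 40 UMIs. The lowest ratios were those of *Ror2* (12.1 and 2.83 CPM), *Rnf43* (9.36 and 3.63 CPM) and *Wnt5a* (34.3 and 15.7 CPM). In retinal progenitor-like cells, 63 genes were counted, 0 were 2-fold higher and 10 lower, beside 1.99% and 5.79% of all genes, with a median log2 ratio of -0.12 compared with -0.03 over all genes. With the red blood cell level subtracted, that median turned to 0.05. The genes at the low end were *Wnt5a* (18.3 and 4.31 CPM), *Myc* (4.86 and 1.21 CPM) and *Fzd9* (3.00 and 1.10 CPM), and at the high end *Pygo1* (ratio 1.25, 1.05 to 1.49), *Tcf7* (ratio 1.155, 0.676 to 2.03) and *Fzd3* (ratio 1.15, 1.07 to 1.24). *Wnt5a*, a ligand gene that was highest in cartilage-like cells (116.2 and 156.1 CPM), had 28.2 CPM in humWT and 3.62 CPM in humdG red blood cell-like cells, so its background moved in the same direction. In cartilage-like cells 13 of 51 counted genes were higher and 4 lower, beside 23.1% and 3.43% of all genes, with a median of 0.53, close to that of all genes.

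The genes whose pattern over the 15 classes of both libraries was most like 9 of the members were taken from Pearson correlations of log2(CPM + 10) over these 30 points, among genes with 500 or more UMIs. The points share libraries and free RNA, so the values are a description. *Sfrp1* was followed most closely by *Sostdc1* (r = 0.924), *Aldoc* (0.905) and *Dbp* (0.904). *Sfrp2* was followed by its antisense neighbour *Gm26771* (0.879), *Vasn* and *Ecrg4*. *Wif1* was most like the cartilage matrix genes *Acan* (0.937) and *Hapln1* (0.921) and *Susd5*. *Dkk2* was most like *Tnxb* (0.933), *C1qtnf7* and *Svep1*, and *Dkk3* like *D10Wsu102e*, *Tmem161b* and *Lonrf2* (0.884 to 0.885). *Fzd5* was most like *Espn* (0.929), *Fgf9* and *LTO1*, *Wls* like *Ppfibp2* (0.902), *Mr1* and *Rhod*, *Axin2* like *Abcd3* (0.865), *Gng7* and *Slc12a2*, and *Lef1* like *Sipa1l1* (0.783), *Cbfb* and *Npff*. Between the members themselves the highest values were those of *Dkk3* with *Fzd5* (0.728), *Axin2* with *Wls* (0.723) and *Sfrp1* with *Wls* (0.691), and the lowest that of *Dkk2* with *Fzd5* (-0.464). *Axin2* and *Lef1*, the genes used as readouts, had r = 0.078, and *Dkk2* and *Lef1*, neighbours on the chromosome, had r = -0.060.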

How the data were processed

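Cells of E17.5 mouse eye cups were sequenced as 1 pooled library for each of the *Myrf* genotypes humWT and humdG. The deposited files hold UMI counts per gene and barcode, made by the authors with Cell Ranger 7.1.0 on build mm10, and the submitters' processing notes also name Seurat 4.1.1. The annotation used, and whether intronic reads were counted, are not given in the sources used here.

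The limits of the study's code were applied, which leave cells of more than 500 detected genes with a mitochondrial share below 15%. Its methods text gives a limit of 200 genes, which was tried as an alternative. Scrublet (Scanpy 1.11.5) called 1 humWT cell and 0 humdG cells as doublets, which shows that its automatic limit did not work, and the top 5% of each library by doublet score was taken out instead (851 and 956 cells). The libraries were integrated in Seurat 5.3.0 (R 4.3.3) over 2000 variable genes and 20 dimensions, without the 10 genes and 79 other Wnt genes, and clustered at resolution 0.5. A cluster was named where at least 3 markers of a class were raised 2-fold in 10% or more of its cells and its leading genes did not go against the name.

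Counts were summed per class and library and scaled to CPM. Poisson intervals belong to levels, conditional binomial intervals to ratios and Clopper-Pearson intervals to shares of cells, all exact and at 95%. They cover counting error only. No test was made, since there is 1 library a genotype. Ratios needed 20 UMIs over both libraries, and a group at 0 was set to 3 counts. All 10 genes are described. Of the other Wnt genes, those named are the 3 highest of each role, and in RPE-like and retinal progenitor-like cells the 3 at either end of the ratios, given 50 or more UMIs. The members, lists and markers were chosen with earlier results of these data known. Restricting the cells to those of 5000 or more UMIs was chosen after seeing the data. The other alternatives were the limits on genes and mitochondrial UMIs, doublet removal, resolution, integration, clustering genes, scaling, the top cell, the background and the count minimum. The genes most like *Sfrp5* are not reported here. The calculations were tested on simulated data. Gene positions are from GENCODE release 21 for mouse on GRCm38.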

Additional observations from a re-analysis of the deposited data

Results flagged for a closer look

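*Wif1* in cartilage-like cells stood apart by direction. Its log2 ratio of humdG to humWT was 1.766 there, while in all 10 other classes with enough UMIs it was lower in humdG, as it also was in red blood cell-like cells, where 68 UMIs were counted in humWT and 0 in humdG. The difference between cartilage-like cells and the other classes was not tested, since each genotype is 1 library. The cartilage-like value depends on how cells were clustered, as given in the next part. The part of free RNA in the lower values was not tested.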

How the results depend on the processing

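No paired analysis was possible because each genotype is 1 library and the libraries share only the replicate number 1. Leaving out a replicate was not possible for the same reason. The number of gene and class pairs 2-fold higher in humdG was 10, and 17 with the red blood cell level subtracted, and the number of lower pairs was 25, and 7 with it subtracted. The counts after subtraction have no share of all genes beside them. The median log2 ratio of the other Wnt genes in retinal progenitor-like cells was -0.119, or -0.120 with 0.5 counts added to each gene. It turned to 0.050 with the red blood cell level subtracted. The cause was not tested beyond the subtraction itself. For the 14 ratios followed through the alternatives, 112 of 129 values stayed within the counting interval of the reported value and 17 moved beyond it, among them 5 of *Wif1* in cartilage-like cells (0.469 to 2.195 on the log2 scale, reported as 1.766). Each of the 5 other clusterings held 11 of the 12 compared classes and lacked the retinal ganglion cell-like one. The number of pairs above the red blood cell level in both libraries was 57, and 48 to 58 over the alternatives. Shares of cells with a UMI were lower in both libraries once each cell was thinned to 1000 UMIs. With 1 library a genotype, no difference between mice can be told from a difference between libraries, and for *Axin2*, *Sfrp5* and *Lef1* the UMIs per class limit what can be seen.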
